A study of Sus scrofa with 6 samples.

Results

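The pyruvate dehydrogenase and tricarboxylic acid (TCA) cycle enzymes described here are 9 genes, *PDHA1*, *PDHB*, *CS*, *IDH3A*, *IDH3B*, *OGDH*, *SUCLA2*, *FH* and *MDH2*, taken by symbol from the raw count matrix of 30476 Ensembl pig genes. Each of the 9 symbols matched 1 Ensembl identifier, and all 9 genes were in the matrix and were tested, with counts between 1284 and 20805 in every pig. The muscle sampled was the longissimus dorsi of the back, and its mRNA had been sequenced from 3 UCP1 KI pigs and 3 WT pigs at 6 months of age, with 1 library per pig and no treatment named in the labels. The UCP1 KI pigs carry an adipocyte-specific knock-in of *UCP1*, the uncoupling protein of brown fat that pigs lack, so the transgene is meant for fat cells and not for muscle fibres. The labels do not give the sex, the litter or the number of founder clones of either group, and *UCP1* has no identifier in the gene name table, so the genotype was not checked against its counts.

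Pyruvate dehydrogenase is the mitochondrial complex that turns pyruvate from glycolysis into acetyl-CoA, and it is switched off by pyruvate dehydrogenase kinases and on by the matching phosphatases. The TCA cycle then oxidises the acetyl group and hands its electrons to the respiratory chain. In muscle these enzymes are more abundant in oxidative fibres than in fast glycolytic fibres, and citrate synthase is the usual marker of mitochondrial content.

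The table of RefSeq genes for the assembly Sscrofa11.1, the build named in the processing notes of the submitters, places the 9 genes on 9 chromosomes. *PDHA1* lies on the X chromosome at chrX:15699924-15718908, *PDHB* at chr13:40161519-40167502 and *CS* at chr5:21669778-21700737. *IDH3A* lies at chr7:47759436-47778948, *IDH3B* at chr17:32955061-32960110 and *OGDH* at chr18:50609415-50684990. *SUCLA2* lies at chr11:19616415-19670667, *FH* at chr10:12404143-12431843 and *MDH2* at chr3:10120121-10132705. These spans run over all exons and introns of a gene. The spans of 5 of the 9 genes overlap another annotated gene, and whether the counting used strand is not given in the sources used here. *IDH3A* shares 1362 bases with *ACSBG1* and *IDH3B* shares 12 bases with *NOP56*.

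The counts on genes summed to between 30220951 and 32660931 in UCP1 KI pigs and between 32672897 and 35066624 in WT pigs. Levels are given in CPM, counts relative to the scaled library total, with trimmed mean of M values (TMM) factors of 0.947 to 1.18 for UCP1 KI pigs and 0.781 to 1.07 for WT pigs, where WT replicate 2 had the smallest factor. The 13 protein-coding genes of the mitochondrial genome held 22.7% to 27.5% of the counts in UCP1 KI pigs and 22.3% to 40.7% in WT pigs, with the highest share in WT replicate 2. Of the muscle markers found by symbol, *ACTA1*, *CKM*, *DES* and *NEB* were each at 2124 CPM or more in every pig, and none of the 4 passed the limits given below. *DES* had the highest log2 fold change of these, 0.72, and *ACTA1* the lowest, -0.30.

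None of the 9 enzymes passed the test between the genotypes. A gene counts as called here at the limits of the study, which ask for p below 0.05 before adjustment and a log2 fold change beyond 0.5 in either direction. By edgeR's quasi-likelihood test 0 of the 9 genes were called, beside 8.19% of the 13402 genes tested (3.84% higher and 4.34% lower in UCP1 KI pigs). The log2 fold changes, UCP1 KI minus WT, ran from -0.43 for *PDHB* to 0.45 for *IDH3A*, and the groups overlapped for all 9 genes, where 15.3% of the genes tested had no overlap (7.59% higher and 7.69% lower). Of the 9 log2 fold changes 6 were positive and 3 negative, with a median of 0.10 beside -0.02 over all genes tested. The count at an unadjusted p under 0.05 was also 0, as was the count with DESeq2, and the edgeR p values of the 9 enzymes, adjusted by Benjamini-Hochberg over all genes tested, ran from 0.719 to 0.965. With library size in place of TMM factors the median of all genes moved to 0.24 and that of the 9 enzymes to 0.32, with 8 positive and 1 negative. A p that misses the limit does not show equal levels, and the standard errors of 0.28 to 0.37 on the log2 scale leave wide intervals, given below for each gene. Replicate numbers only name the pigs, and values are given in the order of replicates 1, 2 and 3.

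**Figure D1:**
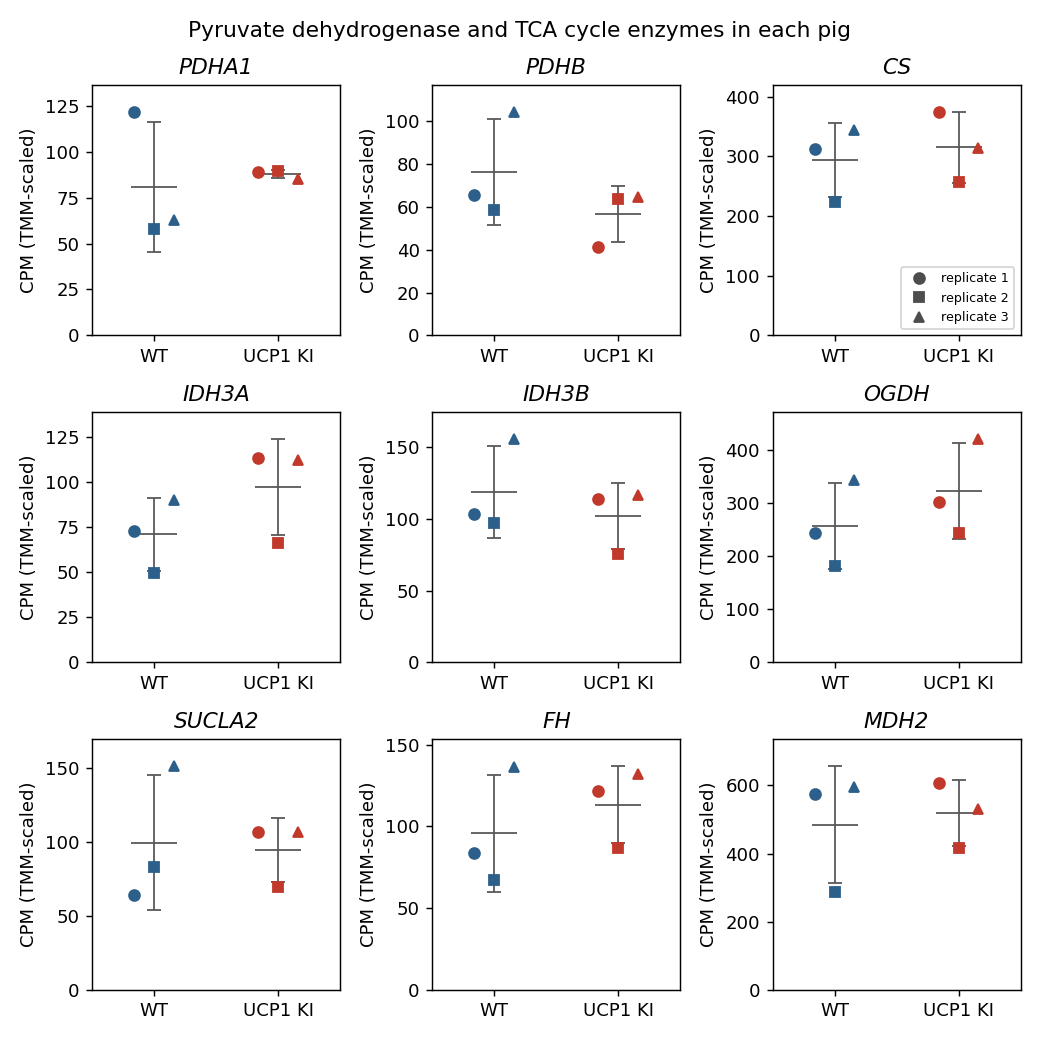
TMM-scaled CPM of each of the 9 enzymes in each pig, with WT pigs on the left in blue and UCP1 KI pigs on the right in red; marker shapes give the replicate, and bars give the mean and SD of 3 pigs. The groups overlapped for every enzyme, and WT replicate 2 was the lowest pig for 6 of the 9.

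*PDHA1* (ENSSSCG00000023643) and *PDHB* (ENSSSCG00000025881) encode the alpha and beta subunits of the E1 enzyme, which decarboxylates pyruvate and carries the serines that the kinases phosphorylate on the alpha subunit. *PDHA1* was at 89.3, 89.5 and 85.5 CPM in UCP1 KI pigs and at 122, 58.2 and 63.1 CPM in WT pigs. The 3 UCP1 KI pigs thus lay close together, between the highest WT pig and the other two. Mean levels were 88.1 ± 2.23 CPM (SD, n = 3) for UCP1 KI and 81.0 ± 35.5 CPM (SD, n = 3) for WT. This gave a log2 fold change of 0.12 (standard error, SE, 0.32; adjusted p = 0.929 with edgeR). Without WT replicate 1 the log2 fold change was 0.53 and *PDHA1* passed both limits, and without WT replicate 2 it was -0.07.

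*PDHB* was at 41.5, 63.9 and 64.8 CPM in UCP1 KI pigs and at 65.7, 58.5 and 105 CPM in WT pigs. Its lowest value was that of UCP1 KI replicate 1 and its highest that of WT replicate 3, while the remaining 4 pigs differed little. The log2 fold change of -0.43 (SE 0.31, adjusted p = 0.725 with edgeR) had a 95% interval from -1.15 to 0.29, which spans levels from 0.452 to 1.23 times that of WT. Leaving out WT replicate 3, *PDHB* was at -0.13, and leaving out WT replicate 2 it was at -0.59. For *PDHA1* the interval ran from -0.63 to 0.86.

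*CS* (ENSSSCG00000035686), citrate synthase, condenses acetyl-CoA with oxaloacetate as the entry step of the cycle. It was at 375, 256 and 314 CPM in UCP1 KI pigs and at 313, 224 and 344 CPM in WT pigs, with replicate 2 the lowest pig of each group. The log2 fold change was 0.10 (SE 0.28, adjusted p = 0.929 with edgeR), and its interval from -0.55 to 0.76 was the narrowest of the 9.

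*IDH3A* (ENSSSCG00000032498) encodes the catalytic alpha subunit of the NAD-dependent isocitrate dehydrogenase, and *IDH3B* (ENSSSCG00000007173) its beta subunit. *IDH3A* was at 113, 66.4 and 112 CPM in UCP1 KI pigs and at 73.1, 49.9 and 90.3 CPM in WT pigs. A pair of UCP1 KI pigs was thus above all WT pigs and UCP1 KI replicate 2 was among them. This gave the highest log2 fold change of the 9 enzymes, 0.45 (SE 0.32), with an edgeR p of 0.197 (0.719 adjusted) and an interval from -0.29 to 1.20. It was 0.25 without WT replicate 2 and about 0.66 without UCP1 KI replicate 2 or WT replicate 3, and it was below *OGDH* without UCP1 KI replicate 1 (0.33 against 0.38) and below *PDHA1* without WT replicate 1 (0.47 against 0.53).

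*IDH3B* was at 114, 75.8 and 117 CPM in UCP1 KI pigs and at 104, 97.5 and 156 CPM in WT pigs. Its fitted log2 fold change of -0.22 (SE 0.29, adjusted p = 0.856 with edgeR) had the opposite sign to that of *IDH3A* and an interval from -0.90 to 0.46. With library size only the value for *IDH3B* was 0.02.

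*OGDH* (ENSSSCG00000016743) encodes the E1 subunit of the oxoglutarate dehydrogenase complex. It was at 301, 244 and 421 CPM in UCP1 KI pigs and at 244, 182 and 344 CPM in WT pigs, so that replicate 3 was the highest and replicate 2 the lowest in both groups. The fitted log2 fold change of 0.33 (SE 0.34, adjusted p = 0.808 with edgeR) had an interval from -0.45 to 1.11. It ranged from 0.092 without UCP1 KI replicate 3 to 0.60 without WT replicate 3.

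*SUCLA2* (ENSSSCG00000009405) encodes the beta subunit of the ATP-forming succinyl-CoA ligase. It was at 107, 69.6 and 107 CPM in UCP1 KI pigs and at 64.5, 83.2 and 152 CPM in WT pigs, so the UCP1 KI pigs lay within the range of the WT pigs. The fitted log2 fold change of -0.08 (SE 0.37, adjusted p = 0.965 with edgeR) was the closest to 0 of the 9 and had an interval from -0.93 to 0.77. With library size only its sign turned, to 0.18.

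*FH* (ENSSSCG00000028178), fumarase, hydrates fumarate to malate, and *MDH2* (ENSSSCG00000025486), the mitochondrial malate dehydrogenase, turns malate into oxaloacetate. *FH* was at 121, 86.8 and 132 CPM in UCP1 KI pigs and at 83.7, 67.3 and 136 CPM in WT pigs, which gave a log2 fold change of 0.24 (SE 0.33, adjusted p = 0.857 with edgeR). *MDH2* was at 609, 415 and 530 CPM in UCP1 KI pigs and at 574, 286 and 594 CPM in WT pigs, which gave a log2 fold change of 0.10 (SE 0.35, adjusted p = 0.950 with edgeR). In both genes replicate 2 was the lowest pig of its group, and the intervals ran from -0.51 to 1.001 for *FH* and from -0.72 to 0.91 for *MDH2*. The log2 fold change of *FH* was 0.043 after dropping WT replicate 2 and 0.59 after dropping WT replicate 3.

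Pigs of 1 genotype differed widely in these enzymes. The summed level of the 9 genes was 1871, 1367 and 1883 CPM in UCP1 KI pigs and 1643, 1107 and 1983 CPM in WT pigs. WT replicate 2 was the lowest pig for 6 of the 9 genes and WT replicate 3 the highest for 4. WT replicate 2 also held the highest share of mitochondrially encoded mRNAs and the smallest TMM factor, and the part of these in its low values was not tested. Without this pig the log2 fold changes of *PDHA1*, *CS* and *MDH2* were -0.07, -0.06 and -0.17, in place of 0.12, 0.10 and 0.10.

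**Figure D2:**
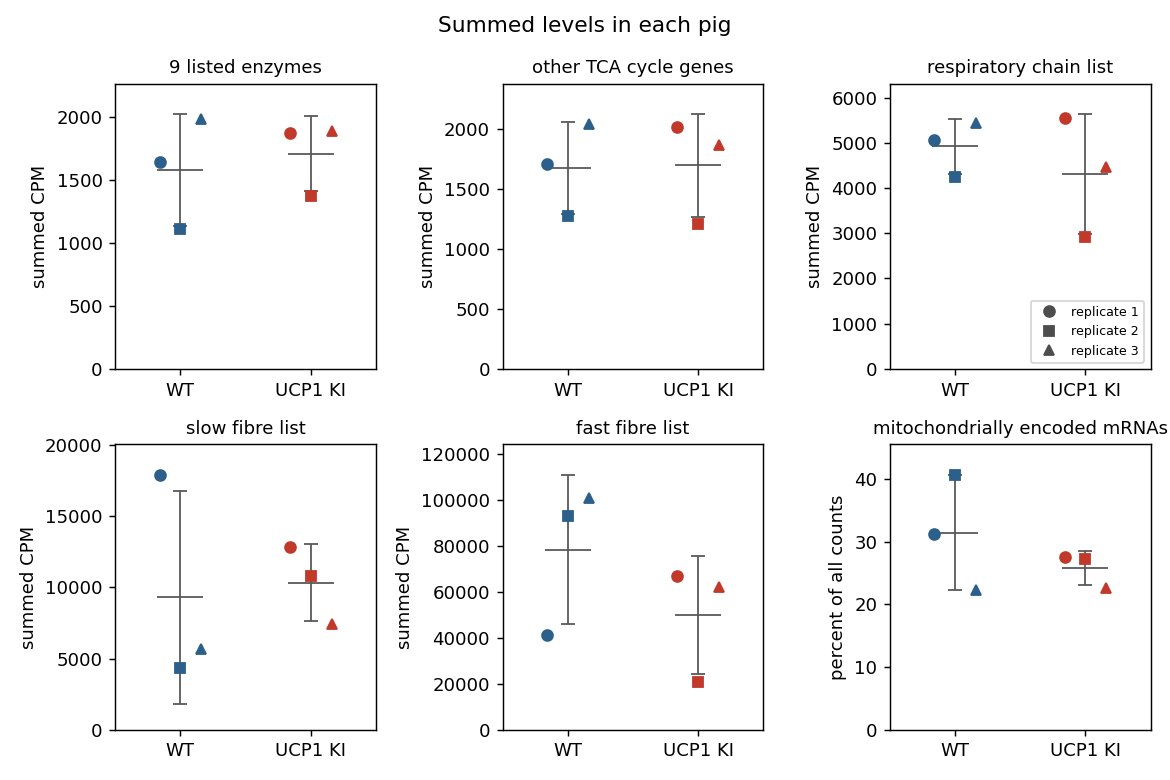
Summed TMM-scaled CPM in each pig of the 9 enzymes, other TCA cycle genes, a respiratory chain list, and slow and fast fibre lists. The last panel gives the percentage of all counts on the 13 protein-coding genes of the mitochondrial genome. Bars give the mean and SD of 3 pigs. Replicate 2 was the lowest of its group for the 9 enzymes and the other TCA cycle genes. WT replicate 2 reached 40.7% for the protein-coding genes of the mitochondrial genome.

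The ratio of counts of paired genes within a pig does not depend on how libraries are scaled. Of 8 ratios compared, *IDH3A* to *IDH3B* had no overlap between the groups. This ratio was 0.996, 0.877 and 0.961 in UCP1 KI replicates 1 to 3 and 0.705, 0.512 and 0.579 in WT replicates 1 to 3, so every UCP1 KI pig was above every WT pig. The mean log2 ratio was -0.08 ± 0.09 (SD, n = 3) for UCP1 KI and -0.75 ± 0.23 (SD, n = 3) for WT, a difference of 0.67, and leaving out any 1 pig kept it at 0.56 to 0.79. The two-sided exact permutation test gave p = 0.1, the lowest value a design of 3 against 3 pigs can reach, and 0.8 after Benjamini-Hochberg adjustment over the 8 ratios, so the difference does not pass the adjustment.

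The gamma subunit of the same enzyme, *IDH3G*, was added as a reference after this ratio had been seen. The ratio of *IDH3A* to *IDH3G* was 0.773, 0.842 and 0.813 for UCP1 KI and 0.650, 0.528 and 0.622 for WT, again without overlap. The ratio of *IDH3B* to *IDH3G* was 0.776, 0.961 and 0.846 for UCP1 KI and 0.923, 1.03 and 1.07 for WT, where UCP1 KI replicate 2 was above WT replicate 1. On the log2 scale the differences were 0.44 for *IDH3A* and -0.23 for *IDH3B*. These ratios share a gene with the one that led to them, so they are a description with no test. *NOP56*, which shares 12 bases with *IDH3B*, had between 1459 and 1974 counts over the 6 pigs. *ACSBG1*, which shares 1362 bases with *IDH3A*, had 6, 2 and 2 counts in UCP1 KI pigs and 572, 21 and 2 counts in WT pigs. The part of these neighbours in the ratios was not tested.

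The other 7 ratios overlapped between the groups. *PDHA1* to *PDHB* was 2.15, 1.40 and 1.32 for UCP1 KI and 1.85, 0.994 and 0.603 for WT, a difference of 0.61 on the log2 scale (exact permutation p = 0.3) that ranged from 0.22 to 1.03 with each pig left out. *PDHA1* to *DLAT* differed by -0.14, from -0.37 to 0.28 with each pig left out, and *IDH3A* to *IDH2* by 0.22 on the same scale. *SUCLA2* to *SUCLG2*, the partner of the GTP-forming ligase, differed by -0.02, and *SUCLA2* to *SUCLG1*, the shared alpha subunit, by -0.06. *CS* to *MDH2* differed by -0.04, with nearly the same ratio in the 3 UCP1 KI pigs, 0.616, 0.617 and 0.593, and a wider one in WT pigs, 0.545, 0.782 and 0.578. *OGDH* to *DLST*, the E2 subunit of its complex, differed by -0.03. The last 4 of these differences changed sign when 1 of the pigs was left out. Exact p values of the 6 ratios after *PDHA1* to *PDHB* lay between 0.4 and 1.

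**Figure D3:**
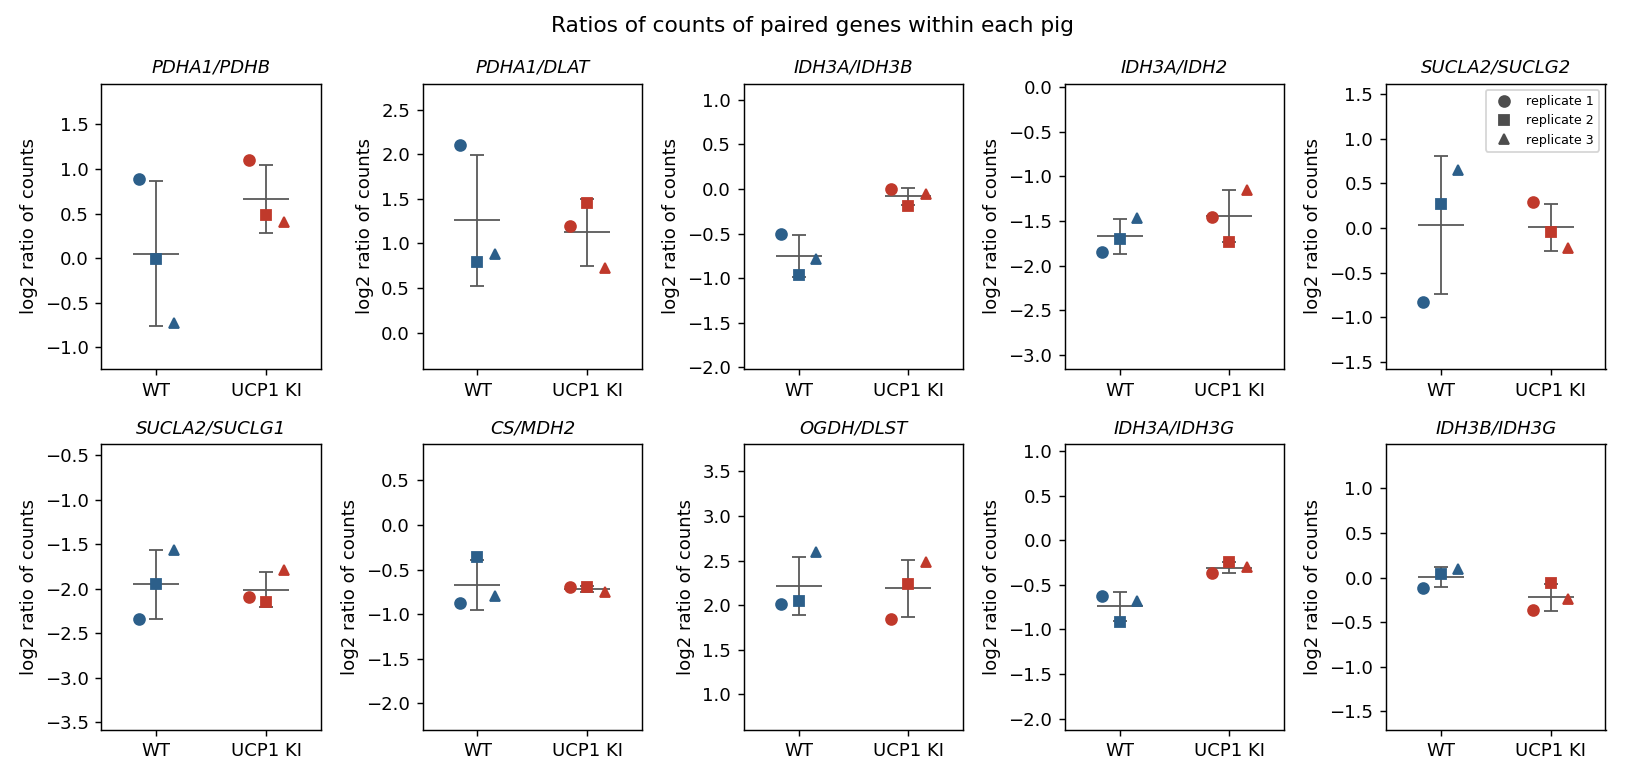
Log2 ratios of the counts of paired genes in each pig, WT in blue and UCP1 KI in red, for 8 ratios and for the 2 ratios to *IDH3G* added later; bars give the mean and SD of 3 pigs, and every panel spans the same height. *IDH3A*/*IDH3B* had UCP1 KI above WT in all pigs, as did *IDH3A*/*IDH3G*, which shares its numerator, and the other panels overlapped.

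The rest of the pathway was taken from lists that hold 43 further genes, of which 41 were found by symbol and 40 tested. Of these 40 genes 0 passed the limits with edgeR (8.19% of all genes tested did) and 0 had an unadjusted p under 0.05, while DESeq2 called 2 (9.77% of all genes). The smallest adjusted p was 0.610 in the edgeR test. Their median log2 fold change was 0.03, beside -0.02 over all genes tested. Of the 40 genes 3 had no overlap between the groups (15.3% of all genes tested). *MCAT* and *GLUD1* had UCP1 KI above WT and *SLC25A1* had UCP1 KI below. These 3 genes are named here after their values were seen. With WT replicate 1 left out 7 of the 40 genes passed the limits, beside 7.84% of all genes in that fit. In a fit that blocks on replicate number 3 of the 40 did, beside 8.31% of all genes.

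Among the other components of the pyruvate dehydrogenase complex, *DLAT*, the E2 subunit, was at 39.1, 32.6 and 51.8 CPM in UCP1 KI pigs and at 28.3, 33.6 and 34.1 CPM in WT pigs, which gave a log2 fold change of 0.36. The log2 fold changes of *DLD*, the E3 subunit shared with the oxoglutarate complex, and of *PDHX*, the E3 binding protein, were -0.30 and -0.0011. All 3 genes overlapped between the groups.

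*PDK4*, the kinase that fasting and fatty acids induce in muscle, was at 986, 880 and 1022 CPM in UCP1 KI pigs and at 848, 1068 and 1421 CPM in WT pigs. Its fitted log2 fold change of -0.21 (SE 0.30, adjusted p = 0.867 with edgeR) had an interval from -0.91 to 0.49 and was 0.06 with library size only. *PDK1*, a kinase gene induced by hypoxia, was at 25.0, 28.0 and 17.1 CPM in UCP1 KI pigs and at 18.6, 16.6 and 16.1 CPM in WT pigs, so that a single UCP1 KI pig reached into the WT range. The fitted log2 fold change of *PDK1* was 0.45 (SE 0.25, unadjusted p = 0.115 with edgeR), and it passed the limits without UCP1 KI replicate 3, at 0.63. For the kinases *PDK2* and *PDK3* the log2 fold changes were 0.17 and 0.09, and *PDK3* had 1.35 CPM in WT replicate 2 against 7.74 CPM or more in the other pigs. *PDK2* passed the limits without WT replicate 1, at 0.62.

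The phosphatase genes *PDP1* and *PDP2* had log2 fold changes of -0.16 and 0.44. *PDPR*, the regulatory subunit of the phosphatase, was at 33.2, 19.2 and 34.9 CPM in UCP1 KI pigs and at 53.0, 34.0 and 41.6 CPM in WT pigs, with only UCP1 KI replicate 3 above the lowest WT pig. Its fitted log2 fold change of -0.56 (SE 0.30) came with an unadjusted p of 0.106 and an adjusted p of 0.656 with edgeR, and a fit that blocks on replicate number called it, at -0.58.

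*MPC2*, a subunit of the mitochondrial pyruvate carrier, was at 138, 144 and 140 CPM in UCP1 KI pigs and at 155, 123 and 154 CPM in WT pigs, which gave a log2 fold change of -0.03. *LDHA*, the lactate dehydrogenase subunit of glycolytic fibres, was at 1533, 246 and 911 CPM in UCP1 KI pigs and at 893, 1350 and 2637 CPM in WT pigs. The fitted log2 fold change of *LDHA*, -0.86 (SE 0.67, adjusted p = 0.746 with edgeR), came with values that differed widely between pigs of both groups. *LDHB*, the subunit of oxidative tissue, was at 43.3 CPM in WT replicate 1 and between 9.60 and 25.7 CPM in the other 5 pigs. Its log2 fold change was -0.04, and 0.999 without WT replicate 1, where it passed the limits.

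Of 9 other TCA cycle genes 0 passed the limits, 6 had a positive and 3 a negative log2 fold change, and all overlapped between the groups. *SDHC*, a membrane anchor of succinate dehydrogenase, had the highest value, 0.67 (SE 0.50), with 28.0, 17.3 and 32.4 CPM in UCP1 KI pigs and 11.7, 7.78 and 29.3 CPM in WT pigs. It passed the limits without WT replicate 3, at 1.41, and in the blocked fit, at 0.85. Log2 fold changes of the other succinate dehydrogenase subunits were -0.02 for *SDHA*, -0.23 for *SDHB* and -0.06 for *SDHD*. *IDH2*, the NADP-dependent isocitrate dehydrogenase, was at 0.21 on the same scale. *DLST* was at 0.38, *IDH3G* at 0.05, *SUCLG1* at 0.05 and *SUCLG2* at 0.02.

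**Figure D4:**
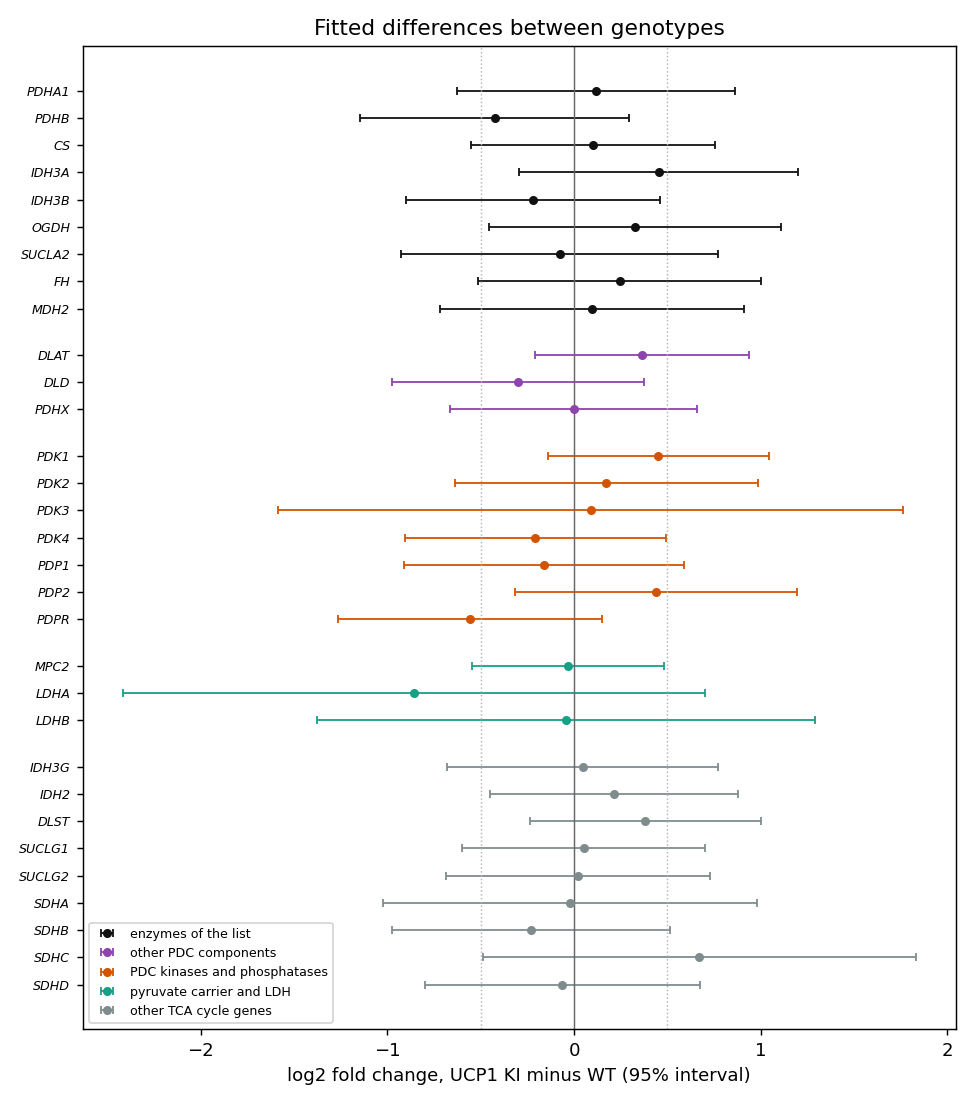
Log2 fold changes, UCP1 KI minus WT, with 95% intervals for the 9 enzymes, the other pyruvate dehydrogenase components, the kinases and phosphatases, the pyruvate carrier and lactate dehydrogenase genes, and the other TCA cycle genes; dotted lines mark -0.5 and 0.5. All 31 intervals include 0, and those of *LDHA* and *PDK3* are the widest.

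Lipoic acid, which the E2 subunits carry, needs *LIAS*, *LIPT2* and, for its fatty acid precursor, *MCAT*. *LIPT2* was at 1.49, 0.926 and 1.59 CPM in UCP1 KI pigs and at 1.43, 2.78 and 4.37 CPM in WT pigs. Its fitted log2 fold change of -1.10 (SE 0.49) came with an unadjusted p of 0.0564 and an adjusted p of 0.610 with edgeR. *LIPT2* passed the limits with DESeq2, at -1.10, with at least 10 counts in every pig, at -1.10, and without WT replicate 1, at -1.42. *LIAS* had a log2 fold change of 0.48, and passed the limits without WT replicate 1, at 0.73. With edgeR's test on all pigs 0 of the 3 genes were called.

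Among 15 genes of anaplerosis and of exchange with the cytosol, 8 log2 fold changes were positive, 7 negative and 0 called. *ME1*, the cytosolic malic enzyme that yields NADPH, had the highest, with 32.4, 41.6 and 57.9 CPM in UCP1 KI pigs and 17.2, 20.9 and 37.2 CPM in WT pigs. Its fitted log2 fold change of 0.81 (SE 0.36) came with an unadjusted p of 0.0567 and an adjusted p of 0.610 with edgeR. *ME1* passed the limits with DESeq2 (0.80), with library size only (1.10), with all genes with any count (0.83), in the blocked fit (0.85), after dropping UCP1 KI replicate 1 (0.99) or WT replicate 3 (1.21), and its smallest adjusted p among these was 0.413. *SLC25A12*, an aspartate-glutamate carrier, had the lowest value, -0.79 (SE 0.39), and passed without replicate 3 of either genotype, at -1.11 and -0.996.

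Lists of the wider mitochondrion and of fibre type also held 0 called genes, beside 8.19% of all genes tested. In 15 respiratory chain genes 3 log2 fold changes were positive and 12 negative, from -0.45 for *COX5B* to 0.19 for *NDUFS1*, with a median of -0.09 that was 0.13 with library size only. In 9 membrane protein genes 7 were positive, from -0.12 for *SAMM50* to 0.55 for *VDAC3*, with a median of 0.17 (0.43 with library size only). *VDAC3* and *CHCHD3*, the latter named after its values were seen, had no overlap, with UCP1 KI above WT, as for 7.59% of all genes tested. Of 10 slow fibre symbols 6 were found, and of 13 fast fibre symbols 9. The myosin heavy chain genes *MYH7*, *MYH1*, *MYH2* and *MYH4* were not found by symbol, so the fibre lists do not hold them. The 6 slow fibre genes had positive values with all pigs, from 0.07 for *TNNC1* to 0.41 for *ATP2A2*. Of the 9 fast fibre genes 8 had negative values, with a range from -1.97 for *PVALB* to 0.06 for *ATP2A1*. Many of these signs depended on single pigs, since 10 of the 15 respiratory chain, 4 of the 9 membrane, 5 of the 6 slow fibre and 4 of the 9 fast fibre genes changed sign in at least 1 fit with a pig left out. *ATP2A2* passed the limits without WT replicate 1 (1.20) and *PVALB* without UCP1 KI replicate 2 (-1.39). Summed over the list, slow fibre genes were at 7419 to 12821 CPM in UCP1 KI pigs and at 4338 to 17911 CPM in WT pigs, with the highest sum in WT replicate 1. Summed fast fibre genes were at 20504 to 66903 CPM and at 41121 to 100731 CPM, with the lowest sum in UCP1 KI replicate 2.

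*PDHA1* had the highest correlation with the slow fibre list of the 9 enzymes. The mean log2(CPM + 1) of the 6 slow fibre genes was 10.69, 10.51 and 10.04 for UCP1 KI and 11.17, 9.04 and 9.64 for WT, so WT replicate 1 was the highest and WT replicate 2 the lowest pig for both. Pearson's r with log2(CPM + 1) of *PDHA1* was 0.959 over 6 pigs (exact permutation p = 0.00278) and Spearman's rho was 0.943 (exact permutation p = 0.0167). Adjusted over the 18 relations of 9 enzymes with the slow and fast lists, these p values were 0.05 and 0.3, and neither is under 0.05. Without WT replicates 1 and 2, the pigs farthest from the median of the slow list, r was 0.876 over 4 pigs. The relation was looked for after the values had been seen, and it was not tested within the genotypes. For the other 8 enzymes r with the slow list lay between -0.438 for *SUCLA2* and 0.631 for *MDH2*. Over the 4 pigs without WT replicates 1 and 2 these ran from -0.916 for *PDHB* to -0.055 for *IDH3A*. Over those 4 pigs the r of *PDHB* was thus larger in size than that of *PDHA1*. With the fast list, *PDHA1* had an r of -0.552 (exact permutation p = 0.274) and a rho of -0.829 (exact permutation p = 0.0583). Without UCP1 KI replicate 2 and WT replicate 3, the r of *PDHA1* with the fast list was -0.950. *IDH3B* had the highest r with the fast list, 0.826 (exact permutation p = 0.0556, adjusted 0.5), a rho of 0.6 (exact permutation p = 0.242), and an r of -0.21 without UCP1 KI replicate 2 and WT replicate 3, so its relation rests on these pigs.

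The genes most like the 9 enzymes over the 6 pigs were found by Pearson's r between log2(CPM + 1) and the mean of the 9 standardised levels, as a description over 11294 genes with a symbol. These were *RTBDN* (0.992), *RNF157* (0.989), *MYO18B* (0.987), *CDK16* (0.984) and *NDUFS1* (0.981), a core subunit of complex I. *RTBDN* was at most at 0.434 CPM. *MYO18B*, a myosin of muscle, was at 95.02, 77.6 and 110 CPM in UCP1 KI pigs and at 89.6, 61.7 and 120 CPM in WT pigs.

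Markers of other cell types were read beside these values, and in a bulk sample fewer cells of a type and less RNA per cell cannot be told apart. The 6 fibroblast markers summed to 235 to 435 CPM in UCP1 KI pigs against 742 to 1187 CPM in WT pigs. Of these genes 4 passed the limits, *COL1A1* (-1.86), *COL1A2* (-1.70), *COL3A1* (-1.57) and *LUM* (-0.57), where 4.34% of all genes passed them as lower, while *DCN* was at -0.39 and *PDGFRA* at -0.08 without a call. *LUM* passed in 1 of the 6 fits that leave out a pig, and *COL3A1* did not pass without WT replicate 2 (-1.31). Of 4 endothelial markers *TEK* was called, at 1.20, where 3.84% of all genes were called higher, and *PECAM1* was at 0.01. Against the same 3.84%, *CD3E* was called among 7 leukocyte markers, at 1.84, with 2 calls in the 6 fits that leave out a pig and 0.95 without UCP1 KI replicate 2, and *AIF1* was the lowest of this list at -0.13. None of the adipocyte or red blood cell markers tested was called, with log2 fold changes from -1.26 for *ADIPOQ* to -0.80 for *CIDEC*, and of -1.29 for *HBB* and -1.04 for *ALAS2*. With each pig left out *ADIPOQ* ranged from -1.79 to -0.26, with a call without WT replicate 1 (-1.77) and the value closest to 0 without WT replicate 2, *HBB* from -1.62 to -0.81, with a call without UCP1 KI replicate 2 (-0.81), and *ALAS2* from -1.58 to -0.38. Summed adipocyte markers were at 42.8 to 87.3 CPM in UCP1 KI pigs and at 46.0 to 282 CPM in WT pigs, with the highest sum in WT replicate 2. Summed red blood cell markers, nearly all of them *HBB*, were at 11.4 to 75.8 CPM in UCP1 KI pigs and at 104 to 179.5 CPM in WT pigs, without overlap, as for 7.69% of all genes tested in this direction. Sums of the leukocyte and endothelial lists overlapped. The part of these cells in the levels of the 9 enzymes was not tested.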

How the data were processed

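RNA-seq of longissimus dorsi muscle from 3 UCP1 KI and 3 WT pigs was analysed. Per the processing notes and the paper, the tools used by the authors were FastQC 0.11.2 (read quality), Trimmomatic 0.36 (trimming), HISAT2 2.0 (mapping, to Sscrofa11.1), StringTie 1.3.3b and DESeq2 1.12.4. The annotation release and the program that counted genes are not given in the sources used here. The authors deposited raw counts per gene without normalization, and 0 columns were left unused.

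The counts went into edgeR 4.0.16 (R 4.3.3) after filterByExpr and TMM scaling, with genotype as the only term of the model and the quasi-likelihood F test on both sides. Called genes have p below 0.05 before adjustment and a log2 fold change beyond 0.5 in either direction, and Benjamini-Hochberg adjustment ran over all genes tested. Standard errors are the log2 fold change divided by the square root of F, and 95% intervals use the t quantile of the fit. Exact permutation tests enumerated all assignments of the pigs, or all 720 pairings for a correlation.

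Symbols came from a table of Ensembl gene names. The text names all 9 enzymes, the genes of the lists on the pyruvate dehydrogenase complex, its control, pyruvate entry and the TCA cycle, the called, highest and lowest genes of the other lists, and the 5 genes most like the enzymes. *ACSBG1*, *NOP56*, *MCAT*, *GLUD1*, *SLC25A1* and *CHCHD3* were added after their values were seen. The enzymes and lists were chosen with earlier results of these data known. Other genes of the lists enter only counts and ranges, and some items are not reported here. Levels are not compared between genes, since transcript lengths were not used here. The alternatives were DESeq2 1.42.0, other scalings and filters, a replicate block, no fold change limit and each pig left out. The sources used here do not state that the pigs were unrelated. The p values between the genotypes set a difference against the spread between these pigs. They take the pigs as independent, which was not tested. The procedure was tested on simulated data.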

Additional observations from a re-analysis of the deposited data

How the results depend on the processing

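Of the 9 enzymes 0 were called under DESeq2, median-of-ratios factors, library size only, both other filters, the replicate block and no fold change limit. In these fits 6.78% to 9.77% of all genes were called. With each pig left out between 0 and 1 of the enzymes were called (*PDHA1*, without WT replicate 1, beside 7.84% of all genes). Over all genes 678 to 1541 were called with each pig left out, against 1097 from all pigs; UCP1 KI replicate 2 gave the lowest count when dropped, and dropping WT replicate 2 gave 718. DESeq2 gave 127 genes an adjusted p under 0.05 and edgeR 0 (1100 at an unadjusted p under 0.05). With library size only 82.7% of the called genes were higher, in place of 46.9%. The 40 pathway genes gave 2 calls with DESeq2 and with library size only, 1 with all genes with any count and with at least 10 counts in every pig, 3 with the replicate block, and 0 to 7 with each pig left out. *IDH3A* to *IDH3G* in place of *IDH3A* to *IDH3B* gave 0.44 in place of 0.67.

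Among the genes named, log2 fold changes that changed sign with library size only were *IDH3B* (0.019), *SUCLA2* (0.18), *PDHX* (0.24), *PDK4* (0.059), *PDP1* (0.080), *MPC2* (0.21), *LDHB* (0.10), *SDHA* (0.19), *SDHD* (0.16), *SAMM50* (0.12), *CKM* (0.23), *NEB* (0.016), *AIF1* (0.20) and *PDGFRA* (0.25). Changing sign as well were *PDHX* with all genes with any count (0.017) and *PDHX* (0.011) and *LDHB* (0.29) with the replicate block. With each pig left out the enzymes whose sign changed ranged from -0.071 to 0.53 (*PDHA1*), -0.060 to 0.24 (*CS*), -0.35 to 0.024 (*IDH3B*), -0.31 to 0.36 (*SUCLA2*) and -0.17 to 0.27 (*MDH2*). Among the other genes named these ranges were -0.11 to 0.27 (*IDH3G*), -0.10 to 0.23 (*SUCLG1*), -0.23 to 0.19 (*SUCLG2*), -0.23 to 0.31 (*SDHA*), -0.29 to 0.24 (*SDHD*), -0.18 to 0.22 (*PDHX*), -0.073 to 0.62 (*PDK2*), -0.43 to 0.53 (*PDK3*), -0.37 to 0.0094 (*PDK4*), -0.48 to 0.086 (*PDP1*), -0.14 to 0.020 (*MPC2*), -0.39 to 0.999 (*LDHB*), -0.045 to 0.46 (*NDUFS1*), -0.25 to 0.066 (*SAMM50*), -0.24 to 0.85 (*TNNC1*), -0.34 to 0.71 (*ATP2A1*), -0.18 to 0.37 (*CKM*), -0.56 to 0.43 (*AIF1*), -1.54 to 0.00042 (*CIDEC*), -0.34 to 0.33 (*PDGFRA*) and -0.19 to 0.21 (*PECAM1*). The causes were not tested.

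The replicate numbers of UCP1 KI and WT pigs are shared in the labels, but deviations from the group means correlated at 0.0038, 0.094 and 0.28 for the same numbers, and 1 of 3 UCP1 KI pigs correlated best with its own number, so the block is not taken as a pairing. It called 1114 genes in place of 1097. The lowest count of the 9 enzymes in any pig was 1284, so counting error is small beside the spread over 3 pigs per group.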

Other observations

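*ACSBG1*, an acyl-CoA synthetase gene next to *IDH3A*, was counted 572 times in WT replicate 1, 21 times in WT replicate 2 and 2 to 6 times in the other 4 pigs. WT replicate 1 was also the highest pig for *PDHA1* (122 CPM), *PDK2* (170 CPM) and *LDHB* (43.3 CPM), and it had the highest sum of slow fibre genes, while its *SUCLA2* (64.5 CPM) was the lowest of the 6 pigs.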
